A study of Homo sapiens with 6 samples.

Results

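The genes described here are the human ZNF zinc finger genes, those whose official symbol is ZNF followed by a number, in HEK293T cells with and without a cloned microRNA. They were selected on detection: a gene entered if at least 1 of its probes had a detection p under 0.01 on at least 3 of 6 arrays, whichever arrays those were. The array named 444 such genes through 625 probes, of which 304 genes passed and 140 did not. HEK293T is an established human embryonic kidney line with the large T antigen of SV40. Expression was read on Illumina BeadChips, 3 with control cells and 3 with cells that had received 4 µg of a clone of hsa-miR-128, and the submitters call the samples biological triplicates. It is not stated if the controls had a plasmid without insert or none, nor which of the hairpins of miR-128 was cloned, and both groups are the same line with no other agent named. All controls sat on neighbouring sections of a slide and all transfected samples on the next ones, so position and group cannot be told apart. Nothing in the labels tells whether the triplicates were separate cultures, and p-values measure the spread between these arrays.

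Most ZNF proteins bind DNA through a row of C2H2 fingers, and many carry a KRAB box at the other end. A KRAB box recruits the corepressor TRIM28 (KAP1), which brings the histone methyltransferase SETDB1 and heterochromatin proteins of the CBX family, and the best known targets of this silencing are transposable elements. The genes multiplied by local duplication and stand in long rows of neighbours, above all on chromosome 19. miR-128 is a microRNA most abundant in brain. It pairs with messenger RNAs through its seed, bases 2 to 8. The mature sequences are shown because they are the agent that separates the groups, from RefSeq (GRCh38.p14), with the seed in capitals. The 3p arm is the same from the hairpins on chromosome 2 (chr2:135665446-135665466, plus strand) and chromosome 3 (chr3:35744527-35744547, plus strand), while the 5p arms differ.
hsa-miR-128-3p: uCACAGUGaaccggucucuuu
hsa-miR-128-1-5p: cGGGGCCGuagcacugucugaga
hsa-miR-128-2-5p: gGGGGCCGauacacuguacgaga
The level of the microRNA itself and seed matches in the ZNF transcripts were not analysed here.

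The arrays had mean signals of 408 to 660, between 12995 and 14345 probes had a detection p under 0.01, and each probe was read on 36.3 to 38.1 beads on average. The fit covered 9797 genes, each by its brightest detected probe. Of the HEK293 markers searched, 5 of 8 were detected, with PAX2, PAX8 and NEFM below detection. Their summed level was 19400 to 21200 in the controls and 13600 to 21000 in the transfected arrays. No leukocyte or hepatocyte marker passed, and 1 of 3 endothelial markers did (VWF). All 4 fibroblast markers passed, and they summed to 796 to 1070 in the controls and 562 to 1010 in the transfected arrays. The part of these shifts in the results was not tested. Transfected array 3 stood apart from the other transfected arrays, at -0.92 on the first principal component against 40.65 and 28.56, with the controls between -32.02 and -13.66. Counts are given with and without it. So are the named ZNF genes whose call depends on it, apart from those detected in 1 group only.

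Most ZNF genes that passed detection had a higher signal in the cells given miR-128, relative to the median gene. The median log2 fold change of the 304 genes was 0.29, against -0.03 over all genes tested, and the middle 50% ran from -0.08 to 0.54, against -0.38 to 0.29. By sign, 217 were higher and 87 lower, but with arrays scaled to equal medians 148 were higher and 156 lower. That scaling moved the median of all genes to -0.33, and the distance of the ZNF median from it was 0.31, close to the 0.32 found with quantile normalization. Relative to the median gene, 224 of 304 ZNF genes were above it with quantile normalization and 218 of 304 with equal medians. This is a description of the genes that passed detection, with no test of the list. In bulk RNA, more cells that express a gene and more of its RNA per cell cannot be told apart.

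No single ZNF gene passed limma's test after Benjamini-Hochberg adjustment, and 0 of the 9797 genes did (0%). The lowest adjusted p among the ZNF genes was 0.0501, which was also the lowest of all genes. At an unadjusted p under 0.05, 83 ZNF genes (27.3%) were higher, where 12.5% of all genes were. In the other direction 21 ZNF genes (6.91%) were lower, where 16.1% of all genes were. With arrays scaled to equal medians these counts were 11 higher (3.62%, against 1.36% of all genes) and 33 lower (10.9%, against 23% of all genes). The 3 transfected values lay above the 3 control values in 92 ZNF genes (30.3%, against 14.7% of all genes) and below them in 27 (8.88%, against 18.1%). Without transfected array 3, 45 ZNF genes passed the adjusted test as higher, where 6.48% of all genes did, and 13 as lower, where 9.42% did. Without transfected array 1 the counts were 20 higher, where 1.81% of all genes passed, and 4 lower, where 3.45% did. In the 263 genes detected on all 6 arrays these counts were 42 and 8 without transfected array 3, and 19 and 3 without transfected array 1. Leaving out any 1 of the other 4 arrays gave 0.

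The fold changes were mostly small. A log2 fold change of at least 1 was reached by 11 ZNF genes (3.62%, against 1.37% of all genes), and one of -1 or less by 3 (0.987%, against 2.32%). The 11 include ZNF675, which was not detected in the controls and can only be called at least 1.43-fold higher. Within 0.25 of 0 lay 89 ZNF genes (29.3%, against 38.1%). In the 263 genes detected on all 6 arrays, the median was 0.29, with 75 higher and 16 lower at an unadjusted p under 0.05. All 8498 genes so detected had a median of 0.01, with 13.3% higher and 14.8% lower.

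The position of the ZNF genes was read array by array, as each gene's value minus its mean over the 6 arrays. The ZNF medians were -0.10, -0.13 and -0.09 in controls 1 to 3. They were 0.06, 0.23 and 0.09 in transfected arrays 1 to 3, while the medians of all genes stayed between -0.01 and 0.03. All 3 transfected arrays lay above all 3 controls, and transfected array 2 was the highest. On that array 70.7% of the ZNF genes were above their control mean, against 48.8% of all genes.

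**Figure D1:**
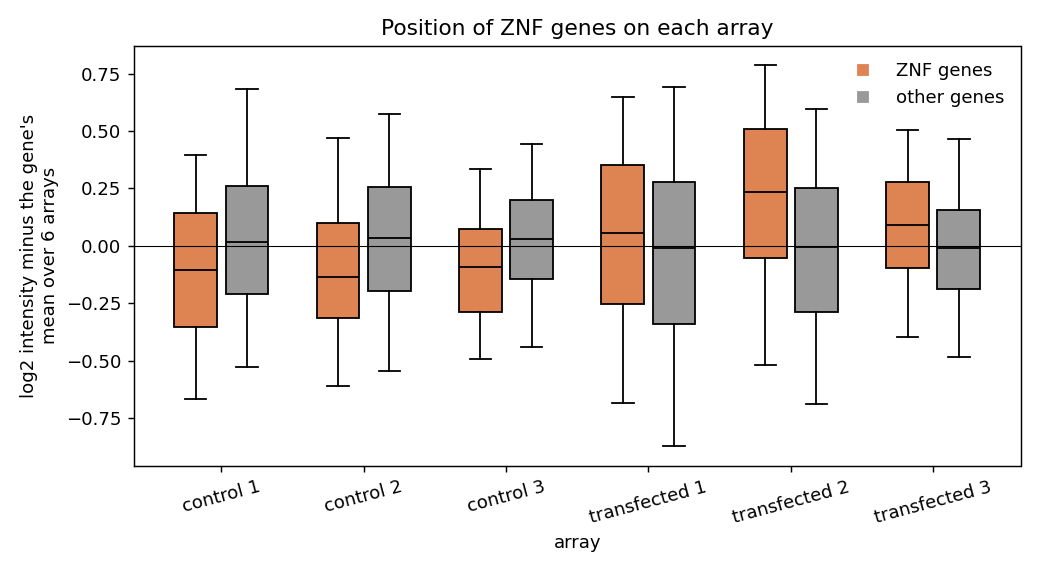
Log2 intensity of each gene minus its mean over the 6 arrays (vertical axis), for the 304 ZNF genes and all other tested genes on each array. Boxes span the middle 50% with the median as a line and whiskers reach the 5th and 95th percentiles; the ZNF median was -0.13 to -0.09 in the controls and 0.06 to 0.23 in the transfected arrays.

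The 10 genes with the smallest p in the higher direction are, but for ZNF280C, known KRAB zinc finger genes. Protein domains were not analysed, so the share of KRAB genes over all tested ZNF genes was not counted. Whether KRAB genes are more common among the higher genes was not tested. KRAB genes also occur among the brightest ZNF genes, which hardly differed, and among the lower ones. ZNF420, a KRAB protein known as a restraint on p53, had the smallest p of the 10 genes. Its normalized log2 intensity was 8.26, 7.82 and 7.87 in the controls and 9.26, 9.26 and 8.97 in the transfected arrays, a log2 fold change of 1.18 ± 0.19 (SE, 3 arrays a group; 2.27-fold, limma adjusted p = 0.0501). The lowest transfected array was well above the highest control. ZNF383, a KRAB gene in the same row of neighbours on chromosome 19, read 7.07, 6.84 and 7.0 in the controls and 7.89, 7.94 and 7.83 in the transfected arrays (log2 fold change 0.92 ± 0.16, adjusted p = 0.0501). The transfected arrays hardly differed among themselves, and the groups did not overlap. ZNF280C on the X chromosome, reported to restrain the resection of DNA ends, stood at 8.82, 8.56 and 8.58 against 9.78, 9.81 and 9.49, a log2 fold change of 1.04 ± 0.18.

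ZNF85, a KRAB gene of the chromosome 19 row that also holds ZNF91, had the largest log2 fold change of the 304 genes in the higher direction, 1.24 ± 0.26 (adjusted p = 0.0533). Its controls were 8.29, 7.35 and 7.59, with control 1 clearly the highest, and its transfected arrays 8.90, 9.26 and 8.81. ZNF26, a KRAB gene at the end of the long arm of chromosome 12, had 8.0, 8.40 and 8.60 in the controls and 9.27, 9.89 and 9.30 in the transfected arrays (1.15 ± 0.24). In both genes all transfected values exceeded all controls. The KRAB genes ZNF254 (1.07 ± 0.21), ZNF184 on chromosome 6 (1.07 ± 0.21), ZNF273 on chromosome 7 (0.98 ± 0.20) and ZNF571 (0.84 ± 0.18) had differences of like size, with adjusted p between 0.0501 and 0.0519. ZNF473, the histone pre-mRNA processing factor also called ZFP100, was at 9.23, 9.23 and 9.13 in the controls and 9.82, 10.32 and 10.02 in the transfected arrays (0.86 ± 0.19, adjusted p = 0.0537). None of these 10 genes, picked for their small p in these same data, changed sign under any processing tried. Without transfected array 3 each passed the adjusted test, where 1558 of all 9797 genes did. Each passed in 6 to 8 of 16 alternatives, and their highest adjusted p over these was 0.247 to 0.331.

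Fewer ZNF genes pointed down, and a pair of related corepressors was among them. ZNF503, a corepressor of the small NET family with a divergent zinc finger, had the largest difference of the 304 genes. Its controls were 10.71, 10.90 and 10.63 and its transfected arrays 9.39, 8.88 and 8.25, a log2 fold change of -1.91 ± 0.28 (3.76-fold lower, adjusted p = 0.0501). The transfected values were spread widely, with array 3 the lowest, yet the highest of them was far below the lowest control. ZNF703, the other NET gene and a breast cancer oncogene, was also lower, at 10.29, 9.89 and 9.57 against 9.33, 9.12 and 8.70 (-0.86 ± 0.25, adjusted p = 0.0812). ZNF358 on chromosome 19 gave 9.63, 10 and 9.37 in the controls and 8.16, 8.31 and 8.74 in the transfected arrays (-1.26 ± 0.23, adjusted p = 0.0501). Neither gene's groups overlapped.

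ZNF219, a partner of SOX9 in cartilage, was at -0.84 ± 0.19 (adjusted p = 0.0589), with controls of 7.51, 7.73 and 7.71 and transfected arrays of 6.55, 6.81 and 7.08. ZNF341, which activates transcription of STAT3, was at -0.97 ± 0.24 (adjusted p = 0.0667), with 7.90, 7.68 and 7.37 against 7.09, 6.34 and 6.61. Both had every transfected array below every control. ZNF467, whose mouse counterpart favours the fat over the bone fate in marrow stroma, was detected on 1 of 3 transfected arrays and was at least 2.22-fold lower. A bound of this kind sets the mean of the bright group against the lowest signal that still counted as detected, or the gene's own signal where that was higher. ZNF579 (detected on 2 of 3 transfected arrays) was at least 1.72-fold lower, and the KRAB gene ZNF519 (1 of 3) at least 1.53-fold. Such bounds hold for the main processing only and leave out the spread between arrays. Over the alternatives tried, the weakest log2 fold change was -0.59 for ZNF467, -0.38 for ZNF579 and -0.28 for ZNF519. The others among the 10 smallest p were ZNF580 (-0.70 ± 0.18), ZNF428 (-0.75 ± 0.20) and the SCAN-domain gene ZNF444 (-0.76 ± 0.20), all on chromosome 19. Their adjusted p lay between 0.0680 and 0.0729. Of the 10 lowest in p, all but ZNF341, ZNF580 and ZNF467 passed the adjusted test without transfected array 3. Each of the 10 passed in 2 to 9 of the alternatives.

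**Figure D2:**
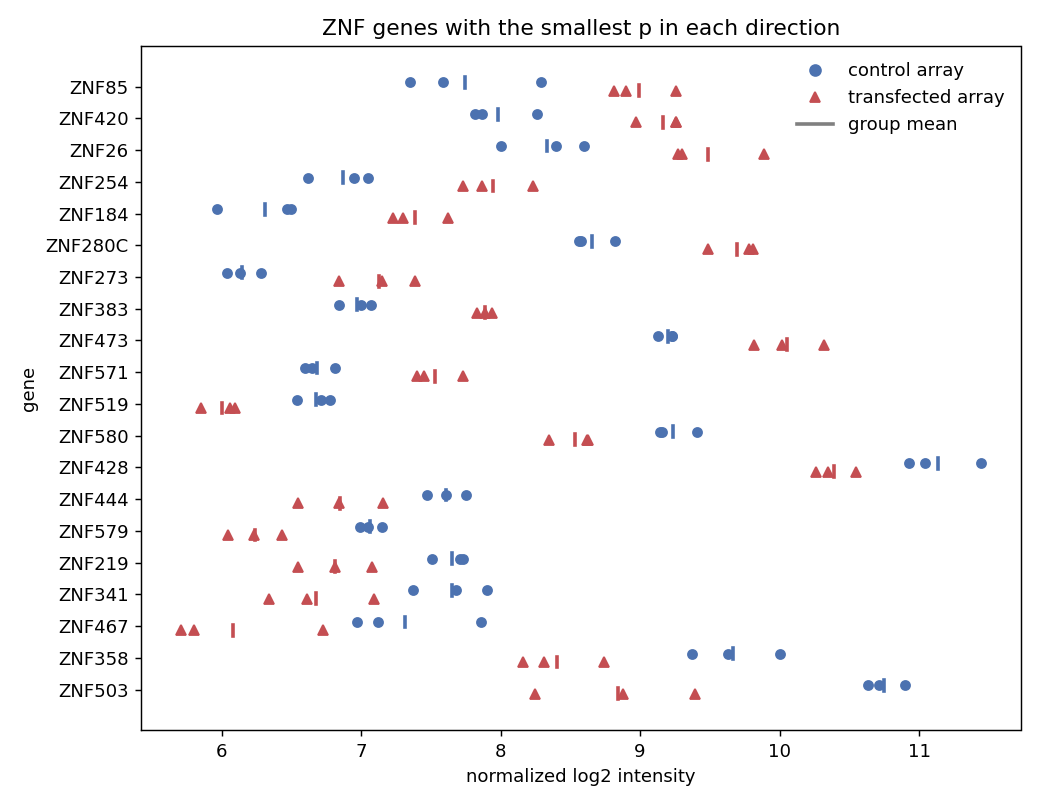
Normalized log2 intensity (horizontal axis) of the 10 ZNF genes with the smallest p in each direction, with one symbol per array and short bars at the group means. In each of these 20 genes the 3 transfected arrays lie to one side of the 3 controls, from ZNF503 at -1.91 to ZNF85 at 1.24 in log2 fold change.

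The promoters of 4 of these genes are shown as examples from either direction, as the 250 bases before and 50 bases after the start annotated by RefSeq (GRCh38.p14), 5′ to 3′ on the gene's strand. Capitals mark the searched motifs found on either strand, which here are the GC box GGGCGG and the element TTCCCAGA. The promoters of ZNF280C (higher) and ZNF579 (lower), also among the genes of smallest p, are not shown. Both held GGGCGG on either strand and neither held TTCCCAGA. ZNF420 (chr19:37078183-37078482, plus strand) and ZNF383 (chr19:37217964-37218263, plus strand) belong to the same row of neighbours and were both higher. ZNF503 (chr10:75401867-75402166, minus strand) and ZNF358 (chr19:7515853-7516152, plus strand) had the most negative fold changes.
ZNF420: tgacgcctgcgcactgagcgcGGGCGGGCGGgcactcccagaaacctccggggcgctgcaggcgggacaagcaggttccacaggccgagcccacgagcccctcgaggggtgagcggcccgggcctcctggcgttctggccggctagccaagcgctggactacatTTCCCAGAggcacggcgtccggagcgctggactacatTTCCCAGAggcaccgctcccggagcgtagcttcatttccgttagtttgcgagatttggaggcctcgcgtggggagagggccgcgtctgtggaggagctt
ZNF383: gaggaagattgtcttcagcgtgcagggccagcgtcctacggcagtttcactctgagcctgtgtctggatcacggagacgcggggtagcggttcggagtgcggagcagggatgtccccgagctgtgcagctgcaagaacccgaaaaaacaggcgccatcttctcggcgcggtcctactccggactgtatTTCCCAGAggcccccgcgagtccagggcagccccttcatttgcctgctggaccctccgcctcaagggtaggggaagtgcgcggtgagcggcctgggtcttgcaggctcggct
ZNF503: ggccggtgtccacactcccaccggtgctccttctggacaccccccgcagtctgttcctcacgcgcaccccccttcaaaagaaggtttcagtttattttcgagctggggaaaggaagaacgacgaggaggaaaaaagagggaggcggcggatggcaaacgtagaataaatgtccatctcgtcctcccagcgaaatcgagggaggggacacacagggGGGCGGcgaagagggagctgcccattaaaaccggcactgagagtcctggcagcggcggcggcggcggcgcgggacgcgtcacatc
ZNF358: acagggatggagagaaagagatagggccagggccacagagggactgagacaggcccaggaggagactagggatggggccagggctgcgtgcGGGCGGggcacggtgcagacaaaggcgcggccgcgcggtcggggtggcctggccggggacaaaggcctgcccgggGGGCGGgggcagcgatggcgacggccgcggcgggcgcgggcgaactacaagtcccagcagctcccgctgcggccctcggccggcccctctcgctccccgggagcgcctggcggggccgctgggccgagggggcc

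TTCCCAGA was searched after it had been read in the first 2 of these promoters, so its count over the higher genes is not independent of that choice. It was present, on either strand, in 12 of 74 promoters (16.2%) of ZNF genes that were higher at an unadjusted p under 0.05, in 1 of 18 (5.56%) of those that were lower and in 19 of 170 (11.2%) of the other ZNF genes. Over all ZNF promoters the share was 12.2%, over the 8131 tested genes with a promoter 2.75%, and over all 27305 promoters 2.86%. Its share was above that of the tested genes in the 170 other ZNF genes too, while in the lower ones it rests on 1 promoter. CTACAATTC, part of the element bound by ZNF143, was in 1.91% of ZNF promoters and 0.640% of the tested genes (0.333% of all promoters). It ends in the 3 letters with which TTCCCAGA begins, so the motifs can overlap and their counts are not separate. The ETS core CCGGAAG was in 38.2% of ZNF promoters, against 19.6% of the tested genes and 10.7% of all promoters, and was nearly as common in the higher ZNF genes (40.5%) as in the remaining ones that were neither higher nor lower (38.2%). GGGCGG was in 61.1% of ZNF promoters and 70.7% of the tested genes (44.6% of all promoters), CCAAT in 50.8% and 37.8% (35.7%), and TATAAA in 2.67% and 5.66% (12%). The remaining motifs, TGACGTCA and GCGCATGC, were in 5.34% and 5.73% of ZNF promoters, against 3.59% and 5.72% of the tested genes and 1.98% and 3.27% of all promoters. Only exact matches were counted and marked, so near matches to an element are left out. A match is only a run of letters and does not show that a factor binds there.

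Higher ZNF genes had AT-richer promoters than lower ones. Of the 304 genes, 262 had a promoter sequence. Median GC content was 59.0% in the 74 higher genes, 61.7% in the 170 others and 68.7% in the 18 lower genes, against 65.3% over all tested genes. The median number of CpG pairs was 20.5, 22 and 31.5 in the same order. When the tested genes were divided into 5 equal groups by promoter GC, the ZNF medians from low to high GC were 0.44, 0.30, 0.29, 0.07 and -0.23 in log2 fold change. Genes other than ZNF ran in the same direction over a smaller range, from 0.03 to -0.14. Across genes, Spearman's rho between GC and log2 fold change was -0.32 over the 262 ZNF genes and -0.12 over the 8131 genes, given as a description because genes on the same arrays are not independent.

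Gene span and signal were compared likewise. By genomic span, from short to long, the ZNF medians were -0.12, 0.36, 0.30, 0.38 and 0.00, while other genes climbed from -0.28 to 0.14. The ZNF median was above that of other genes of like span in every group but the longest. By mean intensity, from dim to bright, the ZNF medians were 0.32, 0.26, 0.30, 0.28 and 0.13. Those of other genes were -0.14, -0.05, -0.03, 0.02 and 0.01. The ZNF median was above that of other genes in every group, most in the dimmest and least in the brightest. The part of signal level in the result was not tested.

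**Figure D3:**
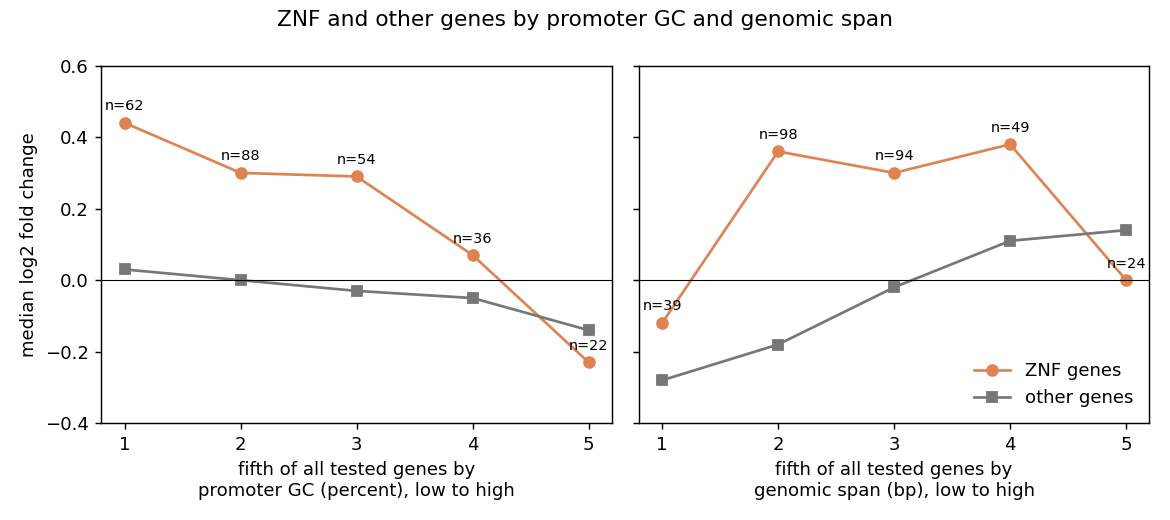
Median log2 fold change (vertical axis) of ZNF genes and of all other tested genes in 5 equal groups by promoter GC content (left) and by genomic span (right), with the number of ZNF genes at each point. ZNF medians go from 0.44 at low GC to -0.23 at high GC, and other genes from 0.03 to -0.14.

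Chromosome 19 holds 145 of the 304 ZNF genes, and there their values differed in direction from those of the other genes under quantile normalization. Their median log2 fold change was 0.32, with 45 higher (31%) and 6 lower (4.14%) at an unadjusted p under 0.05, against 12.5% and 16.1% of all genes. The 503 other tested genes of chromosome 19 had a median of -0.43, with 10 higher (1.99%) and 182 lower (36.2%). By sign, 120 of 145 chromosome 19 ZNF genes were higher with quantile normalization and 79 with equal medians, and 122 and 118 were above the median gene. Of the other chromosome 19 genes, 70 of 503 were higher by sign and 21 with equal medians, and 78 were above the median gene in either case. The 159 ZNF genes elsewhere had a median of 0.16, with 38 higher (23.9%) and 15 lower (9.43%). The median span was 22501 bp for chromosome 19 ZNF genes and 12946 bp for the other genes of that chromosome, and the part of this difference in the result was not tested.

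**Figure D4:**
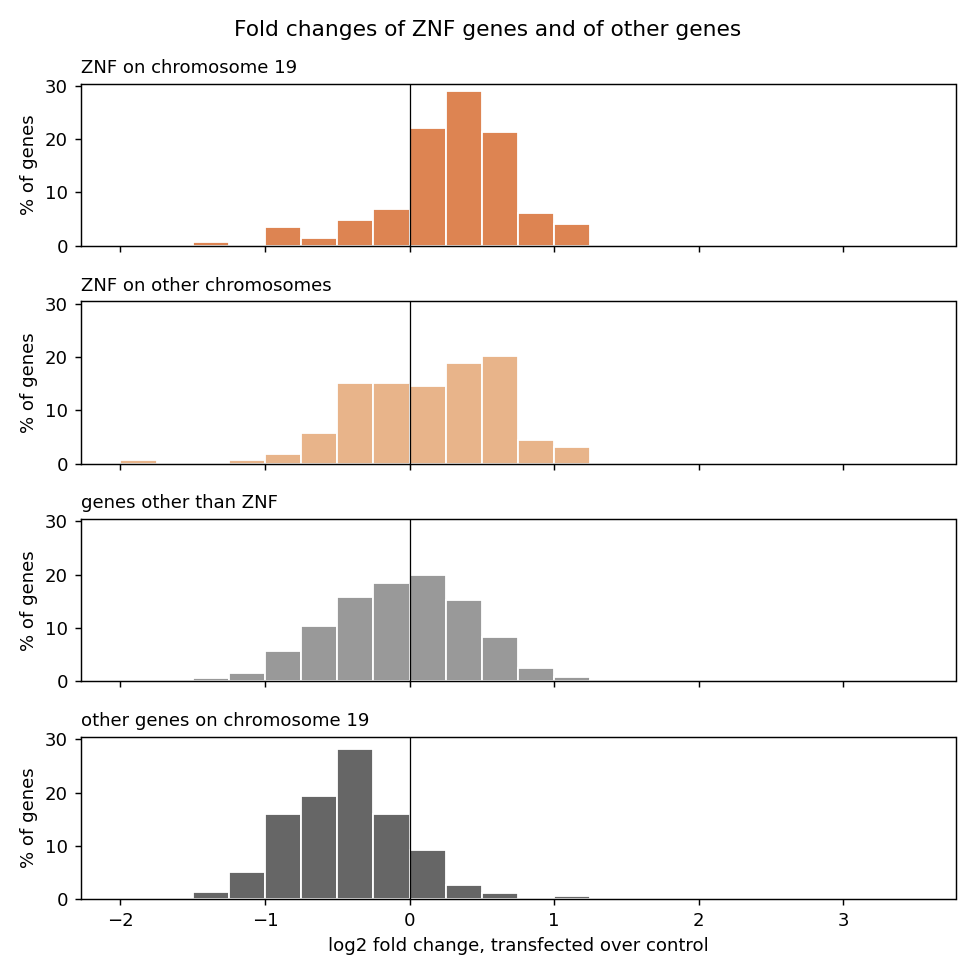
Distribution of log2 fold changes (horizontal axis, bins of 0.25) as a percentage of genes, for ZNF genes on chromosome 19, ZNF genes elsewhere, all other tested genes, and other genes on chromosome 19. The medians are 0.32, 0.16, -0.04 and -0.43, and most chromosome 19 ZNF genes lie to the right of 0.

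Rows of neighbours were defined from RefSeq as at least 5 successive protein-coding genes with C2H2-type names. They held 140 of the ZNF genes, with a median of 0.31, 43 higher (30.7%) and 2 lower (1.43%) at an unadjusted p under 0.05, against 12.5% and 16.1% of all genes. The 164 genes outside such rows had a median of 0.18, with 40 higher (24.4%) and 19 lower (11.6%). The row from ZNF565 to ZNF793, which contains ZNF420 and ZNF383, had 11 tested genes, with log2 fold changes of 0.14 to 1.18 and a median of 0.66. All 11 were higher by sign, 9 of 11 with equal medians, and 7 had an unadjusted p under 0.05. Among them ZNF567 was at 7.83, 7.03 and 7.31 in the controls and 8.65, 8.62 and 8.04 in the transfected arrays. ZNF146, a protein made almost wholly of fingers and one of the brighter genes there, had 11.97, 11.61 and 11.58 against 12.42, 12.46 and 12.12. With all arrays neither ZNF567 nor ZNF146 passed the adjusted test (adjusted p = 0.0671 and 0.0939). Without transfected array 3 both did (adjusted p = 0.0323 and 0.0483). ZNF875 differed little in the same row, at 7.55, 7.62 and 7.63 against 7.84, 7.69 and 7.69.

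Other rows showed how far neighbours could differ. From ZNF737 to ZNF681 all 11 tested genes were higher by sign, 6 of 11 with equal medians, yet ZNF85, ZNF681 and ZNF43 had log2 fold changes of 0.81 or more while 7 others lay between 0.04 and 0.41. The remaining one, ZNF675, was not detected in the controls, so it passed the filter through the transfected group, and was at least 1.43-fold higher. ZNF681 stood at 6.80, 6.12 and 6.84 in the controls and 7.89, 7.73 and 7.34 in the transfected arrays. It passed the adjusted test without transfected array 3 (adjusted p = 0.0338). ZNF91, which silences SVA retrotransposons, was at 9.41, 9.25 and 9.18 against 9.56, 9.36 and 9.12, and its groups overlapped. The row with the most tested genes, from ZNF283 to ZNF180, had 17, with a median of 0.35. Of these, 16 were higher by sign, 11 with equal medians, and 4 had an unadjusted p under 0.05. The row from ZNF530 to ZNF256 had a median of 0.48 over 7 genes, all higher by sign and 6 with equal medians. Off chromosome 19, ZNF605 to ZNF268 on chromosome 12 (4 tested genes, median 0.66) and ZNF722 to ZNF273 on chromosome 7 (4 tested genes, median 0.84) were all higher by sign, 4 and 3 of them with equal medians. The chromosome 7 row includes ZNF107, which was detected on no control and passed the filter through the transfected group, where it is high.

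Of the 17 rows with at least 4 tested genes, 1 had all of them lower. From ZNF524 to ZNF580 on chromosome 19, all 4 tested genes were lower under either scaling, with a median of -0.77. ZNF580 read 9.16, 9.41 and 9.14 in the controls and 8.63, 8.62 and 8.35 in the transfected arrays, and ZNF784, detected on 2 of 3 transfected arrays, was at least 1.57-fold lower. These genes are short, with spans of 2469 to 10621 bp. Close copies such as ZNF585A and ZNF585B share sequence, and hybridization of a probe to a neighbour's transcript was not tested.

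**Figure D5:**
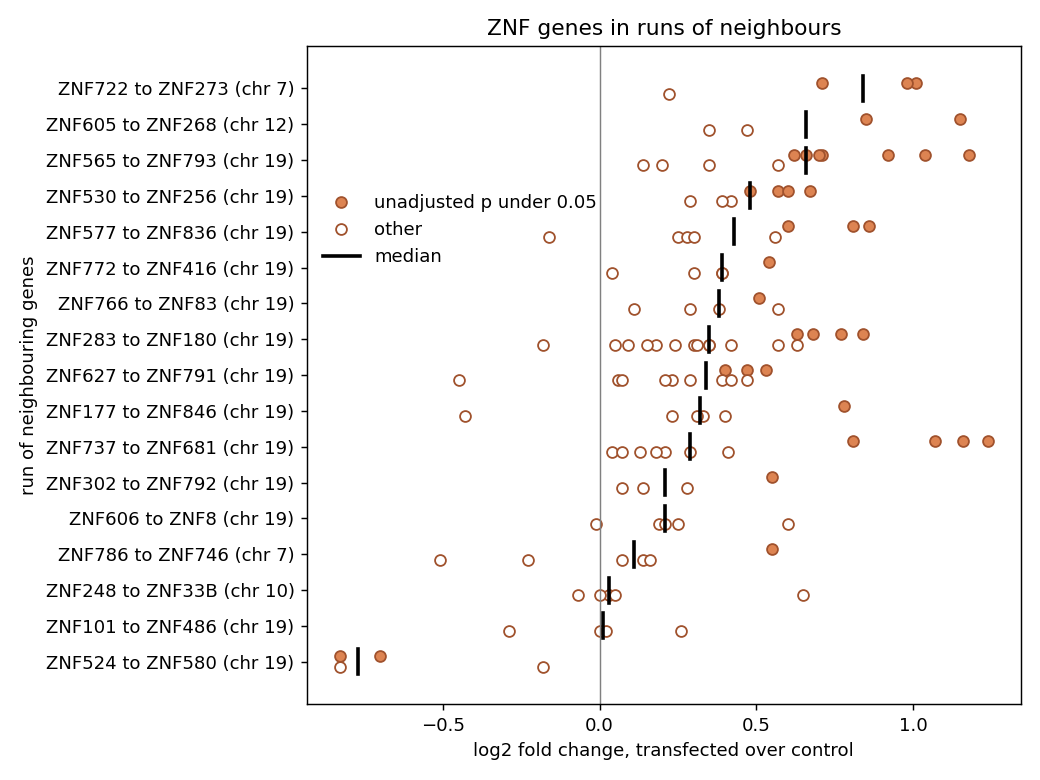
Log2 fold change (horizontal axis) of each tested ZNF gene in 17 rows of neighbouring C2H2 genes with at least 4 tested members, sorted by the row's median (black bar); filled points have an unadjusted p under 0.05. Medians run from 0.84 in ZNF722 to ZNF273 to -0.77 in ZNF524 to ZNF580.

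The brightest ZNF genes hardly differed between the groups. ZNF486 averaged 13.98 ± 0.23 (SD, n = 3) in the controls and 13.99 ± 0.06 in the transfected arrays, and ZNF549 13.69 ± 0.19 and 13.73 ± 0.10. ZNF14 averaged 13.03 in both groups, ZNF430 12.94 ± 0.19 and 13.07 ± 0.13, and ZNF682 12.10 ± 0.26 and 12.36 ± 0.03. In all 5 the groups overlapped, and with arrays scaled to equal medians all 5 were lower in the transfected cells, by 0.10 to 0.37 on the log2 scale. All 5 are KRAB genes of chromosome 19. Levels of different probes cannot be ranked against each other beyond this description.

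Of 34 ZNF genes listed for a known role, 24 were tested. Among regulators of chromatin and transcription, ZNF644, a DNA-binding partner of the methyltransferases G9a and GLP, had 9.14, 8.56 and 8.94 in the controls and 9.87, 10.29 and 9.56 in the transfected arrays (1.03 ± 0.24, adjusted p = 0.0609), but 1 of its 2 detected probes pointed the other way, and the mean over both probes was 0.05 (adjusted p = 0.898). ZNF350 (ZBRK1), a corepressor with BRCA1, had 6.17, 6.72 and 6.68 against 7.48, 7.64 and 7.05 (0.86 ± 0.23). ZNF217, an oncogene of breast cancer that works with CtBP, had 8.41, 8.07 and 8.09 against 9.39, 9.06 and 8.56 (0.81 ± 0.24). In these 3 genes the groups did not overlap. Without transfected array 3 each passed the adjusted test, at 1.20 for ZNF644, 1.03 for ZNF350 and 1.03 for ZNF217 (adjusted p = 0.0322, 0.0343 and 0.0322). ZNF148 (ZBP-89) pointed down, at -0.47 ± 0.18 (adjusted p = 0.142), while its close relative ZNF281 was at 0.01 ± 0.22.

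Other regulators of transcription did not pass the test and pointed either way. ZNF274, which binds the 3′ ends of ZNF genes and recruits SETDB1, was at 0.19 ± 0.24, with 10.22, 10.10 and 10.23 in the controls and 9.86, 10.51 and 10.74 in the transfected arrays. The transfected values straddled the controls. ZNF143, an activator of small nuclear RNA and many messenger RNA promoters, was at 0.46 ± 0.24, and its relative ZNF76, detected on 2 of 3 transfected arrays, was at least 1.11-fold lower by sign. ZNF10 (KOX1), the source of the KRAB box most used as a tool for silencing, was at 0.47 ± 0.25. ZNF410, the activator of CHD4, was at 0.13 ± 0.18. In each of these genes the groups overlapped and the unadjusted p was above 0.05.

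Among the role genes outside transcription, ZNF622, needed for maturation of the large ribosomal subunit, had 11.18, 11.10 and 11.33 in the controls and 11.62, 11.86 and 11.90 in the transfected arrays (0.58 ± 0.17, adjusted p = 0.0855). ZNF593, which acts in the same process, averaged 9.36 ± 0.14 and 9.35 ± 0.61. ZNF598, the ubiquitin ligase of stalled ribosomes, was at -0.36 ± 0.21. ZNF451, a SUMO ligase, had 10.61, 10.47 and 10.44 against 11.67, 11.53 and 10.75 (0.81 ± 0.25), with transfected array 3 the nearest to the controls. Without that array it was at 1.09 (adjusted p = 0.0318), and as the mean over its probes at 0.42. ZNF207 (BuGZ), a spindle protein, was at 0.38 ± 0.19. ZNF335, a factor of neural progenitors detected on 1 of 3 transfected arrays, had 6.22, 5.97 and 6.09 against 4.87, 5.02 and 6.30, so that transfected array 3 lay above all controls. The values of transfected arrays 1 and 2 were below detection, so no fold is given. Without transfected array 3, ZNF335 passed the adjusted test as lower (adjusted p = 0.0318), with both remaining transfected arrays below detection. The remaining role genes ZNF131, ZNF384, ZNF462, ZNF706 and ZNF711 lay between -0.25 and 0.40, with unadjusted p above 0.05.

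At the edge of detection, 11 genes were detected on exactly 3 arrays, with mean log2 intensities of 5.67 to 6.00, and 10 genes just missed with 2 arrays, at 5.44 to 5.93. A further 117 genes had no array with a detection p under 0.01. For 5 of the 11 the detected arrays were a whole group, so they passed the filter through the group in which they are high, and their direction is a description with no test. Without these 5, the counts at an unadjusted p under 0.05 are 80 higher and 20 lower, and those of the adjusted test without transfected array 3 are 43 and 12. ZNF675, an inhibitor of TRAF6 signalling also called TIZ, was detected on all 3 transfected arrays and no control, and was at least 1.43-fold higher. ZNF107 and ZNF625 had the same pattern, at least 1.32-fold and 1.24-fold higher. ZNF771 and ZNF563 were detected on all 3 controls and no transfected array, at least 1.04-fold and 1.01-fold lower. Together with 36 others, these 5 make up the 41 genes detected on some arrays only.

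The partners through which KRAB proteins silence had a median close to that of all genes. Of 23 genes listed, 17 were tested, and their median log2 fold change was -0.02. None passed the adjusted test, 2 were higher and 1 lower at an unadjusted p under 0.05 (11.8% and 5.88%, against 12.5% and 16.1% of all genes), and by sign 7 were higher, 2 with equal medians. TRIM28, the corepressor itself, was the lower one, with 10.10, 10.27 and 10.23 in the controls and 9.25, 9.92 and 9.54 in the transfected arrays (-0.63 ± 0.21, adjusted p = 0.103). Its groups did not overlap, and the controls were tight. TRIM28 spans 6652 bp on chromosome 19, where the 503 tested genes other than ZNF had a median of -0.43. Of those, 36.2% were lower at an unadjusted p under 0.05, and the part of position or span in its value was not tested. SETDB1 was at -0.01 ± 0.21. The heterochromatin protein genes differed among themselves, with CBX1 at 0.84 ± 0.36, CBX3 at -0.28 ± 0.27 and CBX5 at -0.20 ± 0.17. CBX1 had 9.19, 8.65 and 8.69 in the controls and 10.37, 9.82 and 8.84 in the transfected arrays, and the value of transfected array 3 lay among the controls. Without that array CBX1 was at 1.25 and passed the adjusted test (adjusted p = 0.0323), and CBX3 was at 0.00. SMARCAD1, a chromatin remodeller that binds TRIM28, was the other higher gene (0.62 ± 0.22, adjusted p = 0.114), with 8.44, 8.89 and 8.83 against 9.25, 9.66 and 9.10.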

How the data were processed

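RNA of 3 control and 3 transfected HEK293T samples was read on Illumina BeadChips. Per the file headers, the deposited non-normalized table gives, for each of 48803 probes, the mean signal intensity, the count of beads, their standard error and a detection p-value. The submitters' processing notes name BeadStudio and give no version. The authors' second deposited table holds their scaled intensity values and served only as an alternative. Probes were named through the platform annotation, updated with RefSeq: 27578 probes have 1 gene, 13 several and 21212 none.

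Probes were kept if detected (p under 0.01) on 3 or more of the 6 arrays. Background was corrected by normexp from the detection p-values, with an offset of 16, followed by quantile normalization and log2. The brightest kept probe stood for each gene. Groups were compared with limma 3.58.1 in R 4.3.3 (lmFit and eBayes, two-sided) with Benjamini-Hochberg adjustment over 9797 genes. The fit was tested on simulated data. Where the dimmer group lacked detection on some array, a bound ("at least") under the main processing is printed for named genes if it exceeds 1. Of the 304 genes, 52 had several kept probes, and in 15 of these a probe had the opposite sign. Symbols with 1 letter after the number were included (18 genes), and 5 other symbols starting with ZNF were not. The named genes are the 10 of lowest p in each direction, the 5 brightest, a list of 34 with a known role and 5 partners. Genes of rows were named after their values were seen. Protein domains were not analysed here, so the planned grouping by KRAB box was replaced by chromosome, neighbours and promoters. Replicate numbers follow deposit order. The number of arrays limits the precision. The members and lists were chosen with earlier results of these data known. 18 alternatives were tried. Figures were drawn with matplotlib 3.10.9.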

Additional observations from a re-analysis of the deposited data

How the results depend on the processing

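The distance of the ZNF median from that of all genes lay between 0.15 and 0.38 over 16 alternatives, and 68.5% to 74.3% of the ZNF genes were above the median gene. The median itself was 0.18 with no background correction, 0.14 with no detection filter (444 genes) and -0.02 with arrays scaled to equal medians, where 11 were higher and 33 lower at an unadjusted p under 0.05. The count past the adjusted p, which was 0, became 14 with cyclic loess, where 273 of all 9797 genes passed. With equal medians it was 5, with 0 higher and 5 lower, where 373 of all genes passed. It was 16 with no background correction (452 of all genes) and 14 with an offset of 50 (394). With probes detected on all 6 arrays it was 17 of 263 ZNF genes (340 of all 8506 genes). Trended robust moderation gave 11 (344 of all genes). Array weights gave 183 (5003 of all genes), with unadjusted counts of 153 and 46. The count stayed at 0 with no filter, the mean over probes, the authors' table and either other choice of symbols. Leaving out 1 array at a time gave 0 to 58 (58 without transfected array 3), 50 to 106 higher (50 without transfected array 2), 13 to 38 lower (13 without control 2, 38 without transfected array 3) and medians of 0.21 to 0.30. The cause was not tested, except that leaving out a detection filter or an array changes the number of genes or arrays fitted. No paired analysis was possible because the labels number no replicates.

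Among the named genes, 12 changed sign under some alternative, and CBX3 (-0.28) reached 0.00 without transfected array 3. With equal medians ZNF486 was at -0.33, ZNF549 -0.33, ZNF14 -0.37, ZNF430 -0.24, ZNF682 -0.10, ZNF91 -0.24, ZNF274 -0.13, ZNF281 -0.30 and ZNF410 -0.19. ZNF14 was also at -0.03 with cyclic loess and -0.04 with the authors' table, ZNF281 at -0.14 and SETDB1 at 0.02 with array weights, ZNF593 at 0.00 with no background correction and ZNF598 (-0.36) at 0.15 as the mean over probes. With 1 array left out at a time, values ran from -0.09 to 0.14 for ZNF486, -0.07 to 0.10 for ZNF549, -0.08 to 0.06 for ZNF14, -0.04 to 0.18 for ZNF91, -0.14 to 0.16 for ZNF281, -0.29 to 0.31 for ZNF593 and -0.12 to 0.16 for SETDB1.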

Other observations

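Outside chromosome 19, few ZNF genes lie on any chromosome, and the shares at an unadjusted p under 0.05 over all genes, 12.5% higher and 16.1% lower, are the measure for their counts. The 18 on chromosome 16 had a median log2 fold change of -0.21, with 3 higher and 2 lower, close to those shares, and the 13 on chromosome 10, which include ZNF503, 0.03. The 6 genes of chromosome 3 had a median of 0.57, the 7 of chromosome 6, which include ZNF184, 0.52, and the 4 of chromosome 4, 0.53. The 11 of chromosome 8 had 0.06, with 0 higher and 2 lower, although 0 adjusted calls were made anywhere.

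Other C2H2 genes were measured beside them, and their counts have the same shares as background. The 11 ZFP genes had a median of 0.36, with 4 higher (36.4%) and 1 lower (9.09%), and the 23 ZBTB genes, in which the fingers join a BTB dimerization domain, had 0.09, with 8 higher (34.8%) and 3 lower (13%). The 9 ZSCAN genes (0.09) and the 4 ZKSCAN genes (0.11), which carry a SCAN domain, had 1 higher and 1 lower between them. Over these 47 genes the median was 0.16, and 33 were higher by sign, 19 with arrays scaled to equal medians.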
